A study of Mus musculus with 6 samples.

Results

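The lung library is 1 of 6 libraries of RNA 5′ ends made from whole tissues of adult mice of the BALB-c background, with 1 library each from brain, lung, liver, kidney, ovary and spleen. It was taken as every line of the lung table and set against the 5 other tables, so no measured value chose it. The method, parallel analysis of RNA ends (PARE), joins an adaptor to the 5′-monophosphate end of polyadenylated RNA and sequences the first 20 or 21 bases, so each tag marks the place where an RNA was cut, decapped or had been trimmed to. An input of 200 ug of total RNA is stated for brain, liver and lung, and the number of mice behind each library is not stated in the labels. With 1 library per tissue no difference between tissues could be tested, and the intervals below are 95% intervals for counting error only. The tags carry no molecular identifiers, so copies made by PCR were counted as separate tags.

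In mRNA, a 5′ monophosphate is left when the cap is removed or when the chain is cut by an endonuclease, and 5′ to 3′ exonucleases then act on such ends. The tag count of a gene therefore follows both how much of its RNA is present and how much of that RNA is in decay, which cannot be told apart here. In whole tissue, fewer cells of a type and less RNA per cell cannot be told apart either. The lung is lined by airway club and ciliated cells and, in the alveoli, by flat type 1 cells, across which gas is exchanged, and by type 2 cells, which secrete surfactant. Beneath them lies a dense capillary endothelium.

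After reads listed at 2 locations were left out, the lung library held 493121 tags. Kidney held 162270, liver 78952, spleen 42939, brain 33382 and ovary 29213, so lung was 16.9 times as deep as ovary. Levels are given as tags per 1000000 tags of a library (CPM). A count of 0 allows 3 counts, which is 6.08 CPM in lung and between 18.5 CPM in kidney and 102.7 CPM in ovary. Thinned to the depth of ovary, the lung library would hold 22013 distinct ends, within the range of the other libraries of 18564 in spleen to 24616 in brain. GC content of the ends was 31.4% in spleen and between 45.0% and 49.9% in the other 5 libraries.

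The 3 lung markers were far higher in the library labelled lung than in any other. Scgb1a1, the secretoglobin that club cells secrete, had 35759 tags in lung, 174 in liver, 61 in kidney, 21 in brain, 14 in spleen and 2 in ovary. Sftpc, the surfactant protein made by type 2 cells alone, had 10357 tags in lung, 53 in liver, 20 in kidney, 4 each in brain and spleen and 2 in ovary. Sftpb, a second hydrophobic surfactant protein, had 1704 tags in lung, 7 in liver, 5 in kidney, 2 in spleen and none in brain or ovary. Lung thus stood alone for all 3 genes, with liver next by tag count. Scgb1a1 alone made up 7.25% of the lung library and Sftpc another 2.10%.

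In CPM, Scgb1a1 was at 72516 in lung (71766 to 73271) and at 2204 in liver, a ratio of 32.9 (28.4 to 38.4). Sftpc was at 21003 in lung and 671.3 in liver, a ratio of 31.3 (23.9 to 41.8). The level of Sftpb was 3456 in lung, 39.0 times that of liver (18.9 to 97.1). It was 33.6 times the level that a count of 0 allows in ovary (11.5 to 163.3). When distinct ends were counted in place of tags, scaled to 1000000 ends, Scgb1a1 in lung came to 0.728 of its liver value and Sftpc to 2.51 times, while the raw numbers of Scgb1a1 ends were 415 in lung and 96 in liver. Nearly every base of its tagged blocks already had a lung end, as given below, so its number of ends could hardly rise further with depth.

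Reads of strong ends are shown, with and without a poly(A) signal, because the ends with the most tags of all lay at that signal. Each is 5′ to 3′ in the direction of the RNA, named by its gene and the mm9 position of its first base, with AATAAA or ATTAAA, the hexamers that direct polyadenylation, in capitals.
Scgb1a1 chr19 minus 9158153: tgcAATAAActgcgagcatct
Scgb1a1 chr19 minus 9158156: ctttgcAATAAActgcgagc
Cbr2 chr11 minus 120590838: tttgcctaAATAAAcgggcc
Sftpc chr14 minus 70920782: cacaaaagAATAAAgcagcc
Sftpb chr6 plus 72264345: AATAAAgaatgggaacatgg
Tmem100 chr11 plus 89897793: AATAAAtgctcatggctgct
Epas1 chr17 plus 87232730: tATTAAAgtattctgatcct
Cyp2f2 chr7 plus 27918591: tacccgtcttatacgcacag
Ager chr17 plus 34737838: cagagcccacatgatccatgc

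The first of the Scgb1a1 reads began 1931 lung tags, 11 liver tags, 3 kidney tags, 2 brain tags, 1 spleen tag and no ovary tag. The Cbr2 read began 926 of the gene's 2264 lung tags (40.9%), with 4 tags in liver, 2 in kidney, 1 in brain and none in ovary or spleen. The Sftpb read, which opens on the hexamer itself, began 286 lung tags, 3 liver tags, 1 kidney tag and none elsewhere. The strongest ends of Cyp2f2, with 270 lung tags, and of Ager, with 195, held neither hexamer. The Epas1 read began 88 lung tags, 5 spleen tags and 1 liver tag. A second Epas1 end with ATTAAA, at 87232728, had 74 lung tags and 9 spleen tags. Lung was 11.5 times as deep as spleen, so these Epas1 ends were not rare in spleen by scaled level. The other ends given here were rare or at 0 outside lung.

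Some lung tags lay in genes that serve another organ, and their values come before the other results because they touch several of them. All 12 genes of a kidney list that reached 20 tags in kidney had lung tags, 4094 in all against 13666 in kidney; Napsa, which type 2 cells also make, is among them. Kap, the androgen-regulated protein of the kidney's proximal tubule, had 8761 tags in kidney, 2299 in lung, 31 in spleen, 25 in liver, 9 in ovary and 3 in brain. Umod, the uromodulin of the thick ascending limb, had 412 tags in kidney, 89 in lung, 2 in spleen, 1 in liver and none in brain or ovary. Slc12a1, the salt carrier of the same segment, had 135 tags in kidney, 43 in lung and none in the other 4 libraries. Lung was the second library by tags for each of these 3 genes, with a wide gap to the rest.

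For every 1000 kidney tags of a gene on the kidney list, lung had a median of 285 tags, from 122 for Acsm2 to 456.5 for Gpx3, the secreted glutathione peroxidase. The other 4 libraries had medians of 0 to 2.67. Scaled to library size, the lung level was a median of 0.094 of the kidney level, from 0.040 to 0.150. The 17 liver-list genes that reached 20 tags in liver had a median of 120 lung tags for every 1000 liver tags, beside 133 in kidney, 17.4 in spleen and 0 in both brain and ovary. Scaled to library size, their medians were 0.019 of the liver level in lung, 0.032 in spleen and 0.065 in kidney. Alb, serum albumin, had 9136 tags in liver, 890 in lung, 746 in kidney, 290 in spleen, 12 in ovary and 4 in brain. Kidney-list genes were thus seen in lung but hardly in liver, while liver-list genes were seen in kidney, spleen and lung, and by scaled level were lowest in lung of these 3.

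The lung tags of these genes began largely at the bases where kidney or liver tags began. In the windows of the kidney list, 91.1% of lung tags (90.2% to 91.9%) started at an end that also had a kidney tag, against 26.7% in windows outside this list and outside the lung-high set defined below. In the windows of the liver list, 89.8% started at an end with a liver tag, against 21.7%. Densely covered windows outside the lists had similar shares: in those with at least 100 kidney tags 87.9% of lung tags lay at kidney ends, beside 93.9% in the kidney-list windows so covered. For liver the values were 92.2% and 92.4%. By tags, the high shares were thus not particular to the lists. Counted by distinct lung ends, the shares were higher in the lists. They were 41.7% in the other dense windows and 78.6% in those of the kidney list, and 42.3% and 79.5% for liver. The matching share of tags for the 7 genes of the brain list was 6.54%, against 15.99%, with 86 of its 107 tags from Mapt and 3 of 21 at brain ends without it, and in the 3 ovary genes it was 0 of 7 tags. Most genes of these 2 lists had few lung tags: Snap25, a neuronal vesicle-fusion protein, had 33 tags in brain and 1 in lung, and Cyp11a1, which begins steroid synthesis, had 117 in ovary and 1 in lung. The exception was Mapt, the microtubule protein tau, with 28 tags in brain, 86 in lung, 31 in kidney and 1 each in liver, ovary and spleen. The protocol gave each tissue 1 of 6 barcoded adaptors, and whether tags passed between libraries was not tested.

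**Figure D1:**
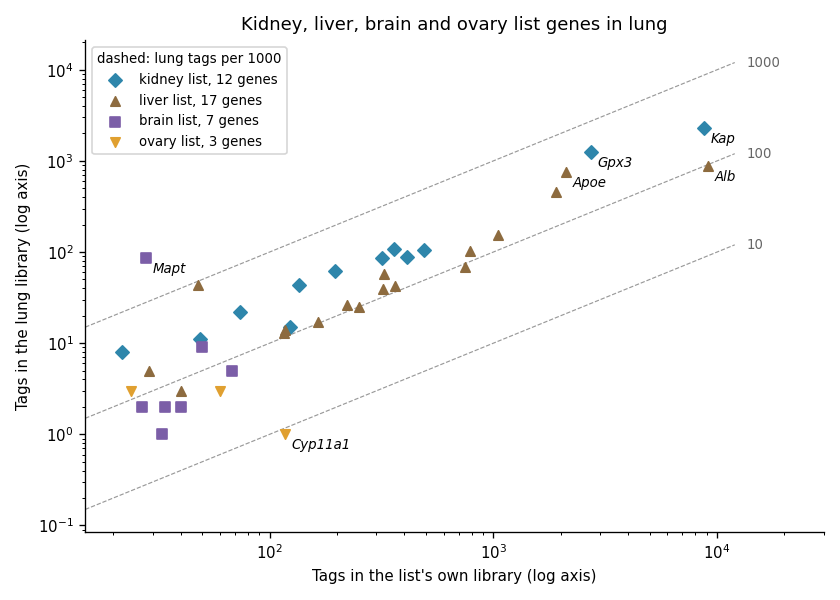
Lung tags (y axis, log scale) against tags in the tissue's own library (x axis, log scale) for listed genes of kidney, liver, brain and ovary with at least 20 tags in their own library, 1 point a gene. Dashed lines mark 1000, 100 and 10 lung tags for every 1000 tags of the own library; the kidney genes lie close to 1 line, with a median of 285, and most brain and ovary genes lie lower.

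The lung-high windows were then defined. The genome was divided into 2 kb windows on each strand, and a window was called lung-high where it had at least 20 lung tags and a lung CPM at least 4-fold above the highest of the 5 other libraries, with a 0 set to 3 counts. Of 4038 windows with at least 20 lung tags, 40 were lung-high (0.991%). They held 66712 tags, which is 13.5% of the lung library. The same windows held 0.538% of liver tags, 0.233% of ovary tags, 0.226% of spleen tags, 0.183% of brain tags and 0.163% of kidney tags. The reference level was set by ovary in 20 of the 40 windows, by brain in 8, spleen in 6, liver in 5 and kidney in 1, so the small libraries decided most calls. Without the ovary library 63 windows passed. At the border, the window of Thbd passed at 4.08-fold with 181 lung tags, and an unnamed window at on chromosome 15, plus strand, from position 54434001, with 229, missed at 3.88-fold.

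Of the 40 windows, 35 could be named, for 32 genes. When all windows of a gene were summed, 31 of 3609 genes with at least 20 lung tags were lung-high (0.859%). Surfactant genes and airway secretory genes led them.

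Sftpa1, a surfactant collectin that binds microbial sugars, had 1994 tags in lung, 12 in liver, 2 in spleen, 1 in kidney and none in brain or ovary, 26.6 times the liver level (15.2 to 51.6). Sftpd, the other lung collectin, had 821 tags in lung, 4 in liver, 1 in ovary and none elsewhere. Its level was 18.5 times the limit that 0 allows in brain (6.32 to 90.0). Neither had more than 12 tags in any other library. Slc34a2, the phosphate carrier of type 2 cells, had 420 lung tags, 2 kidney tags, 1 each in brain and ovary and none in liver or spleen. Lpcat1, which makes surfactant phosphatidylcholine, had 207 tags in lung, 5 in kidney, 2 in liver, 1 each in brain and ovary and none in spleen. Both of these type 2 genes were lung-high against the level that a 0 allows in spleen. The ratios to it were 12.2 for Slc34a2 (4.14 to 59.4) and 6.01 for Lpcat1 (2.03 to 29.4).

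Among airway genes, Cbr2, a lung carbonyl reductase, had 2264 tags in lung, 17 in liver, 5 in kidney and 1 each in brain, ovary and spleen, 21.3 times the liver level (13.3 to 36.7). Cyp2f2, the cytochrome P450 of club cells, had 933 tags in lung, 33 in liver, 6 in kidney, 2 in brain and none in ovary or spleen, a ratio of 4.53 to liver (3.20 to 6.62). Its liver value was the highest of any of these genes relative to lung tags, at 32.8 for every 1000 lung tags in its window, where the median of the 18 lung-high windows with at least 500 lung tags was 5.76. Sec14l3, a lipid-binding protein listed for both type 1 and ciliated cells, had 647 lung tags, 4 in kidney, 3 in liver and none in brain, ovary or spleen. Cxcl15, the lung chemokine lungkine, had 699 lung tags, 2 in liver, 1 in kidney and none in the other 3 libraries.

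Bpifa1, a secreted airway protein, had 576 tags in lung, 2 each in brain and liver, 1 in spleen and none in kidney or ovary. Scgb3a1, another secretoglobin, had 459 in lung, 3 in liver, 2 in brain and none in the other 3. Chil1, a chitinase-like protein, had 385 in lung, 1 each in liver and kidney and none elsewhere. These secreted products were separated from every other library by more than 100 tags, but their ratios, 11.4, 9.06 and 7.60, were each set by the limit that 0 allows in ovary. Wfdc2, an epithelial secreted protein, had 446 tags in lung, 29 in kidney, 4 in liver, 1 in ovary and none in brain or spleen, 5.06 times kidney (3.47 to 7.65). Lyz2, the lysozyme of type 2 cells and macrophages, had 441 lung tags, 6 spleen tags, 4 liver tags, 3 kidney tags, 2 ovary tags and 1 brain tag, 6.40 times spleen (2.92 to 17.5).

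Type 1 cells were represented by Ager, the RAGE receptor, with 1068 tags in lung, 10 in liver, 4 each in kidney and ovary, 1 in spleen and none in brain. Its level was 15.8 times that of ovary (6.16 to 58.2). Emp2, a membrane protein of type 1 cells, had 363 lung tags, 6 kidney tags, 3 liver tags, 2 spleen tags, 1 ovary tag and none in brain. Hopx, a homeodomain protein of the same cells, had 233 in lung, 6 in liver, 3 in brain, 2 each in kidney and spleen and 1 in ovary. The intervals of the last 2 genes, 2.78 to 39.9 and 1.78 to 25.7, reached below the 4-fold limit.

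Epas1, the hypoxia-inducible factor HIF-2α of endothelium, led the vascular genes. It had 1985 tags in lung, 51 in liver, 32 in spleen, 24 in kidney and 8 each in brain and ovary, 5.40 times the spleen level (3.81 to 7.92). Calcrl, the receptor for adrenomedullin and calcitonin gene-related peptide, had 302 tags in lung, 5 in spleen, 4 in liver, 3 in ovary, 2 in kidney and none in brain. Acvrl1, a receptor for bone morphogenetic proteins, had 205 tags in lung, 2 each in kidney and ovary, 1 each in brain and liver and none in spleen. Thbd, thrombomodulin, had 182 in lung, 8 in kidney, 2 in ovary, 1 each in liver and spleen and none in brain. Each was lung-high, with intervals of 2.23 to 16.3 for Calcrl, 2.01 to 29.1 for Acvrl1 and 1.38 to 20.1 for Thbd. Over all 31 lung-high genes, 21 had intervals that reached below 4-fold.

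Among lung-high genes outside the lists, Gsn, which severs actin filaments, had 823 lung tags, 36 kidney tags, 11 ovary tags, 5 spleen tags and 2 each in brain and liver, a ratio of 4.43 to ovary (2.46 to 8.91). Bcam, a laminin receptor, had 202 tags in lung, 7 in kidney, 1 each in liver and ovary and none in brain or spleen. Both had their second-largest count in kidney. Beside Cxcl15 and Wfdc2, described above, the others outside the lists were Adgrf5, Ctla2a, Ehd4, Mfap4 and Sfta2, with 160 to 317 lung tags and at most 8 in any other library.

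The 5 lung-high windows without a name included 1 on chromosome 18 with 1271 lung tags, 7 in liver and 3 in kidney. The window chr6:136820001-136822000 on the minus strand had 904 lung tags, 16 in kidney, 10 in ovary, 6 in liver, 3 in brain and 1 in spleen. The window chr17:26422001-26424000 on the minus strand had 304, with at most 7 elsewhere. Those at chr9:99590001-99592000 and chr4:142856001-142858000, both on the minus strand, had 219 and 143 lung tags and at most 1 and 3 in any other library. These 5 windows did not meet the rule for naming.

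**Figure D2:**
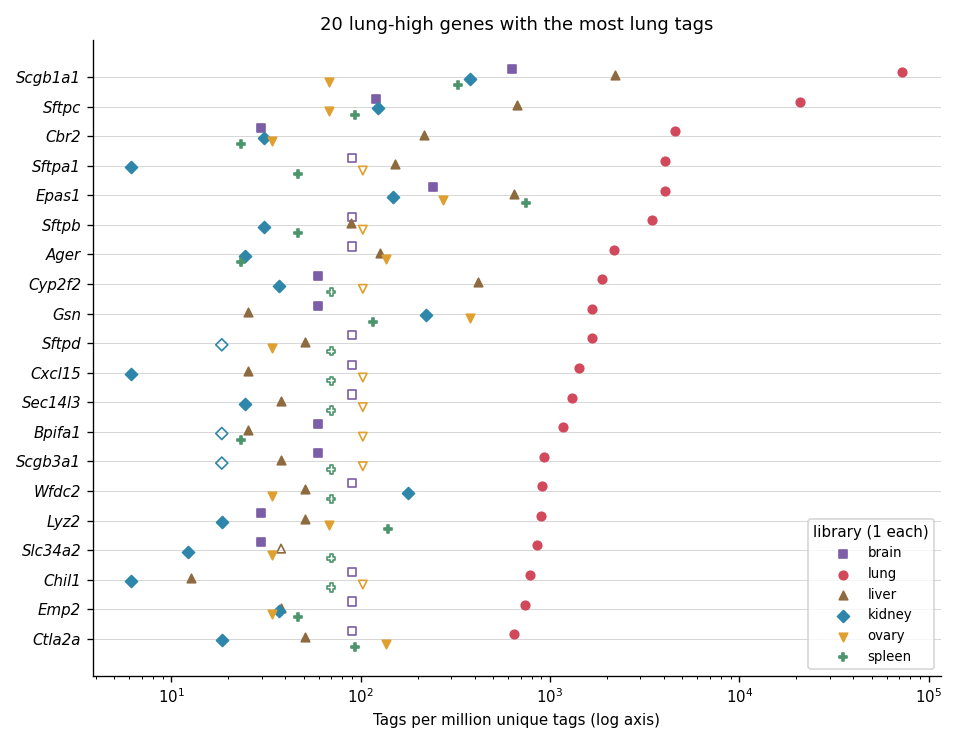
Level in each of the 6 libraries (CPM, log scale) of the lung-high genes with the most lung tags, 1 row a gene and 1 marker a library. Hollow markers stand for libraries with 0 tags, drawn at the level that 3 counts would give; lung lies to the right of every other library in each row, by 32.9-fold for Scgb1a1 and 4.43-fold for Gsn.

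Gene lists for cell types give the same libraries by group. They are described over genes whose tags summed to at least 20 across all 6 libraries, of which 0.541% were lung-high, 1.15% lung-low, 14.8% highest in lung and 5.78% at least 4-fold above the mean of the 5 other libraries. The log2 ratio of lung to that mean had a median of -0.04 over these 5728 genes. Trimmed-mean scaling, which removes the weight of a few abundant genes, moved that median to 1.05, so the medians below should be read against the median of all genes. Of 28 secretory and surfactant genes, 13 were lung-high, 25 were highest in lung and 24 were at least 4-fold above the mean, with a median log2 ratio of 5.51. The 9 type 1 genes gave 4 lung-high, all 9 highest in lung and a median of 4.52. The 3 ciliated-cell genes with enough tags gave 1 lung-high and a median of 2.85. That 1 gene was Sec14l3, which is also among the 4 lung-high genes of the type 1 list.

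The members of the secretory list that missed the call fell into 2 kinds. Lamp3, a lysosomal membrane protein of type 2 cells, had 39 lung tags, Nkx2-1, the transcription factor of lung epithelium, had 46, and Reg3g, an antimicrobial lectin, had 98, and all 3 had no tag in any other library. Their lung levels of 79.1, 93.3 and 198.7 CPM were below 4 times the 102.7 CPM that a 0 allows in ovary, so the depth of ovary could not show a 4-fold difference. Others were abundant elsewhere: Napsa, the protease that processes surfactant protein B, had 196 tags in kidney, 62 in lung, 1 in spleen and none in the other 3. Aldh1a1, a retinal dehydrogenase, had 564 tags in lung, 91 in ovary, 75 in liver, 31 in kidney, 7 in brain and 3 in spleen, and its lung CPM was 0.37 of that in ovary (0.29 to 0.46). Hc, complement C5, had 231 tags in lung, 28 in liver, 5 in kidney, 1 in spleen and none in brain or ovary, a ratio of 1.32 (0.89 to 2.03).

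Of 23 endothelial genes, 5 were lung-high, 21 were highest in lung and 20 were at least 4-fold above the mean, with a median log2 ratio of 2.94. Egfl7, a secreted endothelial protein, had 1144 tags in lung, 79 in kidney, 19 in liver, 17 in ovary and 7 each in brain and spleen, and missed at 3.99 times ovary (2.48 to 6.87), although its window from position 26448001 on chromosome 2 was lung-high. Sparcl1 was an exception, with 78 tags in lung but 18 in brain and 15 in ovary, 0.29 of the brain level. Of 16 matrix and mesenchymal genes none was lung-high and 5 were highest in lung. Their median log2 ratio was 1.04. Inmt, a methyltransferase of lung stroma, was among those 5, with 803 tags in lung, 82 in liver, 41 in kidney and none in the other 3 libraries, 1.57 times the liver level (1.25 to 1.99). Col1a1, a chain of type I collagen, had 99 tags in lung and 17 in ovary, 0.34 of the ovary level.

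Markers of cells other than lung epithelium and vessels were also present. Of 11 smooth and heart muscle genes, 3 were highest in lung and none was lung-high, with a median log2 ratio of 0.69. Those with few tags elsewhere were heart genes: Myl7, the atrial myosin light chain, had 91 lung tags, 2 in kidney, 1 in liver and none elsewhere, and Myh6, the cardiac myosin heavy chain, had 30 lung tags and none in any other library. Acta2, smooth muscle actin, had 69 tags in lung and 21 in ovary, 0.19 of the ovary level. The summed level of the list was 1422 CPM in lung, between 88.7 CPM in liver and 2773 CPM in ovary.

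Of the blood-cell lists, 2 of 4 red-cell genes and 2 of 12 macrophage and granulocyte genes were highest in lung and at least 4-fold above the mean of the others. The adult beta globin Hbb-bs had 3831 tags in lung, 594 in spleen, 127 in kidney, 59 in liver, 27 in brain and 11 in ovary, and its lung level was 0.56 of that in spleen (0.51 to 0.61). The 4 red-cell genes had a median log2 ratio of 1.97, which turned to -0.27 when distinct ends were counted. None of 12 macrophage and granulocyte genes was lung-high and their median was 0.58. Chil3, a chitinase-like protein of alveolar macrophages, stood out with 82 tags in lung, 1 in kidney and none elsewhere, while S100a8, a granulocyte protein, had 162 tags in lung and 14 in spleen, a ratio of 1.01 (0.58 to 1.88). Of 10 genes of antigen presentation and lymphocytes none was lung-high or highest in lung, and the median was -0.12, which turned to 1.27 under trimmed-mean scaling and 0.06 by distinct ends. B2m, the light chain of MHC class I, had 1440 tags in lung, 224 in spleen, 214 in liver, 98 in kidney, 14 in brain and 12 in ovary, 0.56 of spleen. What these cells contribute to the lung-high calls was not tested.

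**Figure D3:**
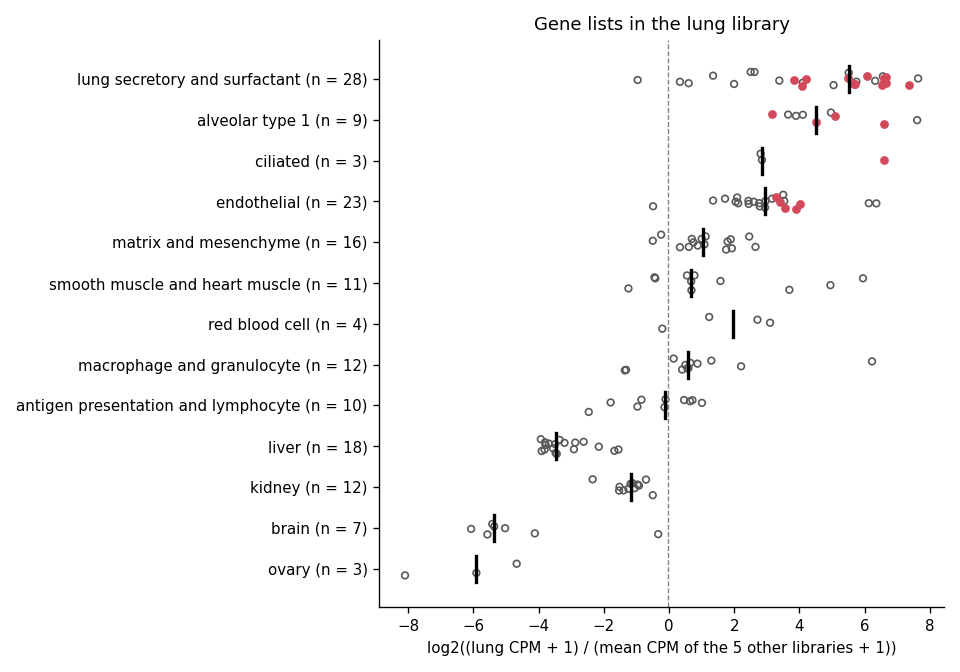
Log2 ratio of lung CPM to the mean CPM of the 5 other libraries (x axis) for genes with at least 20 tags, 1 point a gene and 1 row a cell-type list. Filled red points are lung-high, the black bar is the list's median and the dashed line the median of all 5728 genes, -0.04; the secretory, type 1 and endothelial lists lie to its right, with medians of 5.51, 4.52 and 2.94, and the liver, kidney, brain and ovary lists to its left. The antigen-presentation median is above 0 under trimmed-mean scaling and by distinct ends, and the red-cell median is below 0 by distinct ends.

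Within the lung-high genes the tags were gathered near the 3′ end. Over the 32 genes with a lung-high window, the strongest end lay within 50 nt of the gene's last end in 20, where the last end is the one reached before the final 0.5% of tags. The median distance was 25 nt. A median of 32.7% of a gene's lung tags lay in the last 50 nt. The strongest single end took between 2.66% of the tags, in Sftpa1, and 40.9%, in Cbr2, with a median of 5.42%. Cbr2 still had 220 distinct lung ends, so ends were spread over many bases even there. These values were not computed for other genes, and all RNA was selected on oligo(dT). Whether the lung-high genes differ from others in this was therefore not tested.

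The Scgb1a1 tags formed 3 blocks, on the minus strand. The first, at chr19:9162355-9162448, held 2820 tags, the second, at chr19:9159696-9159869, held 6409 and the last, at chr19:9158144-9158307, held 26527, which is 74.2% of the gene. Within them 96.8%, 92.5% and 97.6% of the positions had at least 1 lung tag, so almost every base of the blocks was an end. Tags rose from the 5′ block to the 3′ block. Exon borders were not taken from an annotation of this build.

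Sftpc had 6 blocks, and the last, at chr14:70920766-70920965, held 7608 tags or 73.5% of the gene. Sftpb differed in shape: its largest block, at chr6:72264097-72264413, held 1438 tags, 84.4% of the gene, but a smaller one of 118 tags lay downstream at chr6:72265371-72265531. Ager had 9 blocks, with 590 tags, or 55.2%, in the last. Sftpa1 had its largest block, with 1135 tags and 56.9%, upstream of a block with 484. Scgb1a1, Sftpc and Ager thus shared a maximum in the most 3′ block, and Sftpb and Sftpa1 did not.

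**Figure D4:**
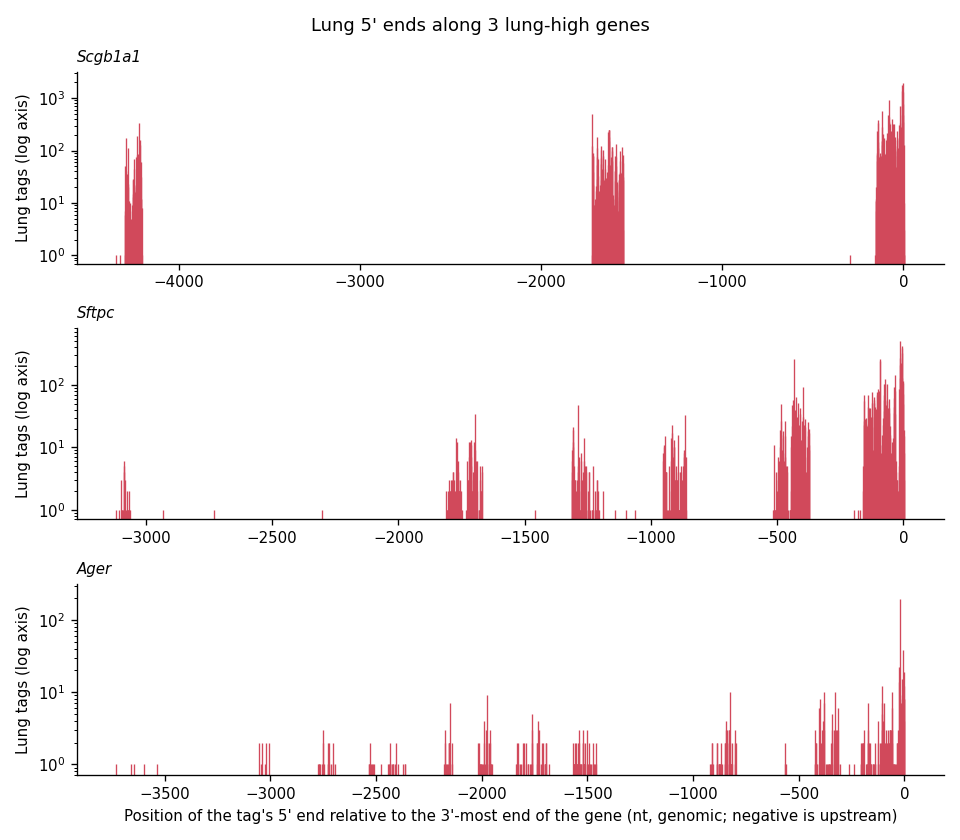
Lung tags (y axis, log scale) along Scgb1a1, Sftpc and Ager against the position of each end relative to the gene's last end (x axis, nt, negative upstream), 1 panel a gene. Tags gather at the right edge in each panel, with 39.2%, 36.7% and 39.3% of tags within the last 50 nt, in that order. Sftpb and Sftpa1, which are not drawn, have their strongest ends 1186 and 2164 nt before the last. Cbr2, also not drawn, has 40.9% of its tags at 1 end.

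Searched in the deposited reads on their own strand, AATAAA was in 24.7% of lung tags in the lung-high windows (24.4% to 25.0%) and in 6.31% of lung tags in all other windows. By distinct ends the shares were 4.59% and 5.46%, so the difference was in tags per end. A few genes weighed heavily on the share of tags. The leading Scgb1a1 window held 32937 of the 66712 lung tags in the lung-high windows. Strong ends at the hexamer had 1931, 1789 and 1384 tags in Scgb1a1, 926 in Cbr2 and 501 in Sftpc. The share without these genes was not computed. The strongest end's read held AATAAA in 9 of the 32 genes and ATTAAA in 3 others, a count that was not made over other genes. Liver tags in the lung-high windows held AATAAA in 21.2% and kidney tags in 15.8%. In the spleen library 38.1% of tags in all other windows held it, so its presence near decay ends was not limited to lung. A match says only that these letters are in the read.

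Tags of the other libraries in the lung-high windows mostly began at bases where lung tags began. The share was 95.1% in liver (92.5% to 96.9%), 91.2% in ovary, 90.7% in spleen, 85.2% in brain and 83.4% in kidney. In all other windows it was 47.2%, 34.0%, 48.7%, 27.0% and 39.5%. The lung library has tags at a large share of the bases in these windows, and when it was thinned to the depth of ovary the shares in the lung-high windows fell to 70.6%, 35.3%, 66.0%, 63.9% and 46.4%, in the same order. Over the 18 lung-high windows with at least 500 lung tags, liver had a median of 5.76 tags for every 1000 lung tags, from 1.52 to 32.8. The matching medians were 2.15 in kidney, 0.419 in spleen, 0.015 in ovary and 0 in brain. By total tags the libraries would give 160.1 in liver, 329.1 in kidney, 87.1 in spleen, 59.2 in ovary and 67.7 in brain. Liver therefore had more tags than kidney in these windows, although it is the smaller library.

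Windows low in lung were sought among 2326 windows with at least 20 tags over the 5 other libraries and a median of the 5 above 0. In 87 of them (3.74%) the lung CPM was 4-fold or more below that median. They held 0.101% of the lung tags. The highest library was liver in 38, kidney in 19, brain in 12 and ovary and spleen in 9 each. By gene, 66 of 2385 were lung-low (2.77%).

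The lung-low window with the most tags was in Ncl, the nucleolar protein nucleolin, with 157 tags in kidney, 63 in lung, 27 in ovary, 22 in brain, 14 in liver and 1 in spleen. These tags lay at few ends, 4 in kidney and 5 in lung, and 40 of the lung tags were at 1 end. Which RNA of this window they come from was not tested. Cpa1, the pancreatic carboxypeptidase, had 146 tags in spleen, 4 in liver, 2 in lung, 1 in brain and none in kidney or ovary. The ovary's Cyp11a1 had 93 tags in its window in ovary, 5 in kidney, 1 each in brain and spleen and none in lung, which allows up to 6.08 CPM in lung. The liver genes Cyp2c69, with 90 liver and 2 lung tags, and Trf, the iron carrier transferrin, with 74 liver and 9 lung tags in its leading window, were also low. 4931406C07Rik had 80 tags in kidney and 12 in lung. For Alb, 1 window of the gene was lung-low, with 89 liver tags, 19 in kidney and 2 in lung, although the whole gene was not. The other 3 of the 10 largest had no name. In some windows the median of the 5 was the level of 1 tag in a small library. It was 1 brain tag, at 30.0 CPM, for Cpa1 and Cyp11a1, and 1 spleen tag, at 23.3 CPM, for Cyp2c69 and the Alb window. Without that tag the median would be 0 for Cpa1, Cyp2c69 and the Alb window, and they would not be considered. The lung-low set thus held genes of liver, pancreas and ovary beside the window in Ncl.

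The lung library also held ends left by microRNA processing. The nuclear enzyme Drosha cuts the hairpin out of its primary transcript, and the downstream fragment begins with a 5′ monophosphate at the base after the microRNA of the 3′ arm. The microRNAs of the hairpins with the most lung tags are shown, from RefSeq (GRCm38.p6), with the seed (bases 2 to 8), by which a microRNA pairs with its targets, in capitals. The let-7 pair shares its seed.
mmu-let-7b-5p: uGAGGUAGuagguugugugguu
mmu-let-7a-5p: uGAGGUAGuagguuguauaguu
mmu-miR-24-3p: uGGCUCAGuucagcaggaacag
mmu-miR-142a-3p: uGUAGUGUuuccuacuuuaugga
mmu-miR-126a-3p: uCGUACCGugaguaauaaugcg
mmu-miR-214-3p: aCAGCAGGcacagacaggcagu
mmu-miR-146a-5p: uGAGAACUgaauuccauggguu
mmu-miR-29c-3p: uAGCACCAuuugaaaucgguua
mmu-miR-671-3p: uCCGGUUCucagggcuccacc

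The reads of the downstream fragments come from the deposited lines, with the bases that still belong to the annotated hairpin in capitals. They tell apart hairpins that give the same microRNA, such as Mir24-1 and Mir24-2.
Mirlet7b chr15 plus 85537830: CTGAggcgcccagggacacag
Mir24-2 chr8 plus 86732796: GAGTCCAGCCCCCTAGGAGCT
Mir24-1 chr13 plus 63402581: GAGtcgagcccttgagcaaa
Mir142 chr11 plus 87570428: TGagtgcactgtgggcttcg
Mir126a chr2 plus 26446944: CGGTCAgcagcccagcgccag

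Of 822 hairpins with a 3′ arm microRNA, 698 could be placed, and 77 had a tag within 1 nt of the predicted end in at least 1 library. In lung 67 had a tag there, 26 of them in lung alone, and 11 had at least 20 tags. The other libraries had 31 in ovary, 30 in kidney, 18 in brain and 10 each in liver and spleen. Lung is the deepest library, and these numbers were not compared at equal depth. A hairpin with few tags in lung alone can lie below the limit of every other library. Of the lung tags from 20 nt before to 60 nt after the ends of these 77 hairpins, 94.1% lay at the predicted end. The hairpins were kept for a tag at that end in some library, so the share was partly fixed by that choice. The lung library had 2591 such tags or 5254 CPM (5054 to 5460), below ovary at 6401 CPM (5519 to 7384) and above brain at 2606, kidney at 2557, spleen at 1351 and liver at 823.3. Ovary and lung were thus the 2 highest libraries, and trimmed-mean scaling turned their order, with 10066 CPM in lung and 4002 CPM in ovary. The trimmed-mean factor was lowest in lung, the deepest library, and highest in ovary, the smallest.

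Mir24-2 had 402 tags in lung, 101 in kidney, 11 in ovary, 6 in liver, 5 in spleen and 3 in brain, a ratio of 1.31 to kidney (1.05 to 1.65). Its sister Mir24-1 had 28 tags in lung, 13 in kidney, 9 in brain, 7 in ovary, 2 in liver and none in spleen, and lung was at 0.21 of brain (0.10 to 0.51). The ends of these hairpins, which give the same mature strand, thus had different orders over the libraries. Mirlet7b had 1076 tags in lung, 153 in kidney, 72 in ovary, 36 in liver, 32 in brain and 7 in spleen, at 0.885 of ovary (0.697 to 1.14), which trimmed-mean scaling turned to 2.71 times. Its main end lay 1 base before the predicted one.

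Mir126a, which lies within Egfl7, was the one of the 10 hairpins with the most lung tags that exceeded the highest other library 4-fold, with 303 tags in lung, 19 in kidney, 7 in liver, 4 in ovary, 2 in brain and none in spleen. Its ratio to ovary was 4.49 (1.73 to 16.6). Its exact end supplied 298 of the 1144 lung tags counted to Egfl7 (26.05%). Mir142, of blood cells, had 325 tags in lung, 31 in spleen, 17 in kidney, 9 in liver, 6 in ovary and 2 in brain, at 0.913 of spleen (0.631 to 1.37), which trimmed-mean scaling turned to 2.41 times. Mir214 had 70 tags in lung, 28 in ovary, 13 in kidney and none in the other 3, at 0.148 of ovary (0.094 to 0.238).

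The next hairpins had fewer tags. Mir146 had 64 tags in lung, 6 in brain, 3 each in kidney and spleen, 1 in liver and none in ovary. Mir29c had 41 in lung, 17 in kidney, 2 in ovary, 1 in brain and none in liver or spleen. Mir671 had 27 in lung and 10 in kidney, and Mirlet7a-1 had 26 in lung and 2 each in ovary and spleen. All 4 lung levels lay below the highest other library or its limit, with intervals that included 1, and all 4 lay above it under trimmed-mean scaling, at 2.09, 1.04, 1.17 and 1.70 times. Mir27a, with 10 tags, and Mir34b, with 8, had tags in lung alone, at 20.3 and 16.2 CPM. A 0 allows 18.5 CPM in kidney and more in the other 4 libraries, so only kidney could show the level of Mir27a and none that of Mir34b.

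A second kind of end lay at the first base of the 5′ arm microRNA, where Drosha makes its upstream cut. The lung library had 685 tags there for Mirlet7b, 52 for Mirlet7d, 35 for Mir146, 30 for Mirlet7i, 17 for Mir98 and 15 for Mir191. Mir24-2 had none there and Mir142 had 1. At the first base of the 3′ arm microRNA, 20 tags lay in Mir222, 19 in Mir214, 17 in Mir29a and 16 in Mir107. Mir27b had 9, and Mir27a and Mir429 had 8 each. Reads listed at 2 locations were left out, so a start shared by 2 hairpins could not be counted here. The balance of upstream and downstream ends therefore differed widely among hairpins within the same library.

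**Figure D5:**
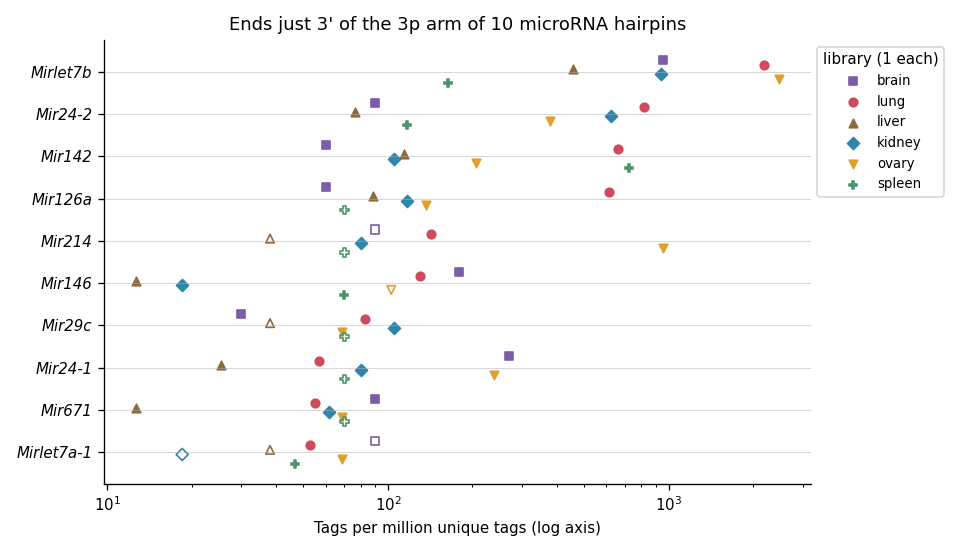
Level (CPM, log scale) at the downstream Drosha end of the 10 microRNA hairpins with the most lung tags, 1 row a hairpin and 1 marker a library, hollow where a library has 0 tags and is drawn at its 3-count level. By CPM, lung lies among the other libraries for most hairpins, above them for more under trimmed-mean scaling, and to the right for Mir126a, by 4.49-fold over ovary.

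Across the 12337 windows that reached 10 tags when all 6 libraries were added up, the log2(CPM + 1) of lung correlated most with that of ovary (Pearson r = 0.392, Spearman rho = 0.398), then with spleen (0.379), kidney (0.321), liver (0.310) and brain (0.272). These are descriptions across windows, which are not replicates, and the libraries differ in depth. With all 6 thinned to the depth of ovary, over 3033 windows, r was 0.369 for ovary, 0.250 for kidney, 0.225 for spleen, 0.175 for brain and 0.110 for liver. Ovary stayed first at both depths, and liver moved to last.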

How the data were processed

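Per the labels' protocols, adult tissue RNA was selected on oligo(dT) before and after being ligated to a 5′ adaptor, reverse transcribed, amplified (7 cycles), cut with MmeI, given barcoded adaptors, amplified again (25 cycles) and sequenced on an Illumina GA. Tags were aligned with Bowtie to mm9, per the submitters' processing notes; its version and settings were not given in the sources used. The deposited tables list each read with its count of raw tags, which were used, and a browser score that the authors set at 70 per read up to 999, which was not. The 5′ end is the first base on the plus strand and the last on the minus strand. Reads listed at 2 locations were dropped.

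Tags were summed per 2 kb strand window and scaled to 1000000 (Python 3.11.15, numpy 2.4.6, pandas 2.3.3, scipy 1.17.1). Ratios have exact conditional binomial intervals, levels exact Poisson and shares Clopper-Pearson intervals, all for counting error. With 1 library per tissue no test was made. The counting steps were tested on simulated data.

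No mm9 annotation was used. Reads of at least 20 bases equal to a RefSeq promoter (250 bases before to 50 after a start) or hairpin fixed 1619 features on mm9, and genes were placed between features spaced alike within 200 nt in RefSeq's build, or beside 1 feature within 100 kb; 16403 of 21883 protein-coding genes were placed. A window carries a gene's name where that gene's span holds over 50% of its tags and no other gene of the strand 10%. Sftpc was placed from known gene order. This replaced a planned match to protein sequences. The naming rule, Sftpc, the comparison with the mean of the 5 others, the windows with at least 100 kidney or liver tags and the value without Mapt were chosen after the data were seen.

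Named were the 15 lung-high windows with the most lung tags, the 10 with the highest lower bounds, the 10 largest lung-low windows, list genes with at least 20 tags, the 10 hairpin ends and single ends with the most lung tags; further lung-high genes were named after their values were seen. Members and lists were chosen with earlier results of these data known.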

Additional observations from a re-analysis of the deposited data

How the results depend on the processing

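The 40 lung-high windows became 185 with trimmed-mean scaling, 25 with lung thinned to the depth of ovary, 13 by distinct ends, 110 at 2-fold and, chosen after seeing the data, 562 against the mean of the 5 others; leaving out each other library gave 44 to 63, the highest without ovary. All 40 were among the windows called under trimmed-mean scaling, 2-fold, the mean and each omission. This was fixed in advance, because 2-fold, the mean and the omissions only lower the bar for a call. Trimmed-mean scaling raises every ratio, since its factor was lowest in lung, at 0.522, and its factors ran in inverse order of depth. After thinning 25 of the 40 were kept, and 12 by distinct ends. The 87 lung-low windows became 30, 440 and 53 under the first 3 settings, 271 and 27 with at least 10 and 50 tags and 298 at 2-fold; leaving out a library gave 61 to 166, with 147 without brain, 158 without ovary and 166 without spleen. Of the 87, those kept were 34 without kidney, 37 without liver, 59 without ovary, 60 without brain and 69 without spleen, 30 with trimmed-mean scaling, 72 after thinning and 46 by distinct ends. Windows of 1 kb and 5 kb gave 44 and 39 high and 82 and 89 low, and keeping reads at 2 locations 42 and 93. The ratio of Scgb1a1 became 52.9 with trimmed-mean scaling and 0.728 by distinct ends, that of Sftpc 50.3 and 2.51, and that of Sftpb 62.7 and 10.04, from 33.6. By distinct ends the leading Scgb1a1 window stood at 0.654 and the unnamed window of chromosome 17 at 0.817. List genes called lung-high went from 22 to 43 with trimmed-mean scaling, 13 by distinct ends and 64 against the mean. The median of all genes turned to 1.05 with trimmed-mean scaling and 0.12 by distinct ends, that of the antigen list to 1.27 and 0.060, and that of the red-cell list to -0.27 by distinct ends. Ends of lung at equal depth were 23638 without the 3 markers and 22343 with reads at 2 locations kept. Tags of other libraries at lung ends in lung-high windows, matched within 1 nt, came to 95.1% of brain, 98.6% of liver, 92.1% of kidney, 98.5% of ovary and 95.9% of spleen tags, and with lung thinned to 63.9%, 70.6%, 46.4%, 35.3% and 66.0%. Hairpin ends at the exact base alone had 2586 CPM in lung, since the main Mirlet7b end lies 1 base away, and 10066 CPM with trimmed-mean scaling, above ovary at 4002 CPM. Trimmed-mean ratios of single hairpins were 2.71 for Mirlet7b, 1.72 for Mir24-2, 2.41 for Mir142, 6.89 for Mir126a, 0.454 for Mir214 and 0.609 for Mir24-1. With a pseudocount of 10 CPM, r was 0.325 for brain, 0.389 for liver, 0.432 for kidney, 0.466 for ovary and 0.434 for spleen; with at least 50 tags 0.135 for liver, 0.204 for kidney and 0.280 for spleen; and thinned 0.175 for brain, 0.110 for liver, 0.250 for kidney and 0.225 for spleen. Why these values moved was not tested, beyond what each setting leaves out.

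No paired analysis was possible because each tissue has 1 library. Depth limits the calls: at 102.7 CPM for 3 counts in ovary, a lung gene seen nowhere else needs over 4 times that level to be lung-high. Peptide naming was not run.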
